A study of Drosophila melanogaster with 2 samples.

Results

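The 10 genes described here encode histone variants (His2Av, His3.3A, His3.3B, His4r and cid) and proteins that carry or deposit histones (Nap1, asf1, Hira, XNP and dre4). They were chosen by name out of 13945 annotated protein-coding genes of Drosophila melanogaster, and every summit, the base of highest signal in a peak, was taken that lay in the gene body or within 2 kb of it. The data are chromatin immunoprecipitation followed by sequencing (ChIP-seq) of HmgZ, an abundant small chromatin protein whose HMG box bends DNA. The single group was a transgenic line stably expressing HmgZ with green fluorescent protein at its C-terminal end, in pooled male and female embryos of 4 to 24 h, with chromatin sonicated to 200 to 800 bp. It had 2 biological replicates, numbered 1 and 3, which shared 1 control alignment, and there was no second genotype, stage or untagged sample in the files used here. Which promoter drives the transgene is not given in the sources used here. The age is that of the sample source, since a separate age field holds a number of hours no embryo reaches. Whole embryos mix all embryonic cell types, so a signal is an average over them. Both samples are described in free text as input controls, but the antibody field, the assay field and the lists are those of a ChIP against the tagged protein, and they were handled as ChIP. The lists hold no read counts and the depth is unknown. Coordinates are on the dm6 build.

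Nucleosomes are built from canonical histones, made during DNA replication from a large tandem array of histone genes, and from variants that are made from single genes throughout the cell cycle and can be deposited outside replication. In flies His2Av serves as both H2A.Z and H2A.X, His3.3A and His3.3B encode the same H3.3 protein, His4r encodes H4 outside the tandem array, and Cid is the H3 variant that marks centromeres. Histone chaperones shield free histones and hand them to DNA: Asf1 carries H3 and H4, Nap1 carries H2A and H2B, Hira and the ATRX homologue XNP place H3.3, and Dre4 is the Spt16 subunit of FACT, which takes nucleosomes apart ahead of polymerases.

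HmgZ peaks lay at the promoters of 9 of the 10 genes, asf1 being the exception. A gene was counted as having a promoter peak if the summit of a peak passing the irreproducible discovery rate (IDR) threshold, a measure of agreement between replicates that the authors applied, lay within 250 bp of one of its transcription start sites (TSSs). By the same rule 4574 of the 13945 protein-coding genes (32.8%) had one. With the wider window of the gene body plus 2 kb, 9 of the 10 genes again held a summit, against 53.9% of all genes. The 10 windows held 11 summits: 9 at the gene's own promoter, 1 past the end of His3.3B and 1 past the end of XNP. No summit passing the threshold lay inside any of the 10 gene bodies beyond the promoter. The gene list was drawn up with earlier results of these data known, so the shares are set side by side and not tested.

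**Figure D1:**
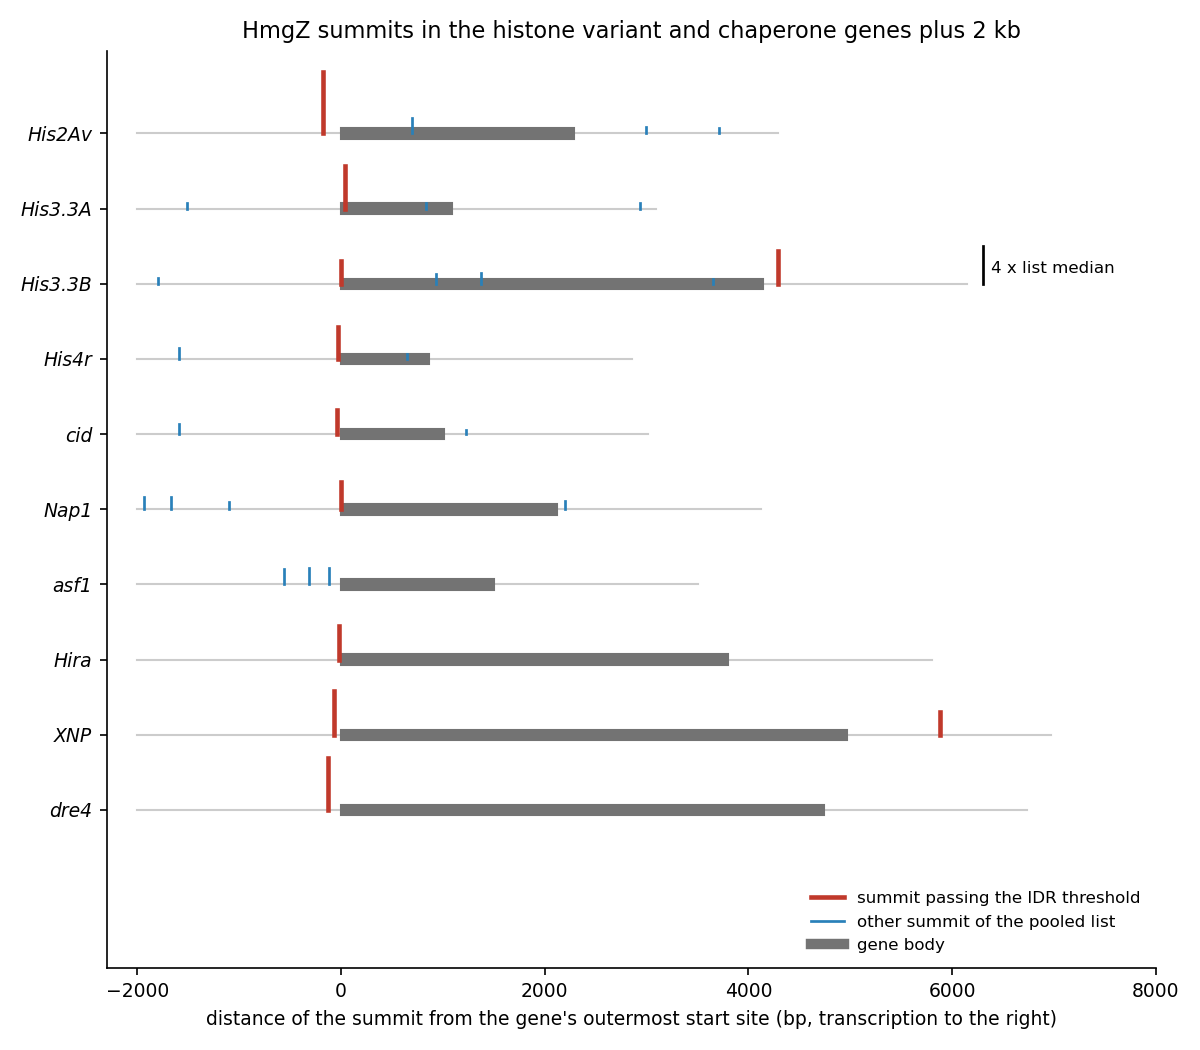
Summits of the pooled list of 30000 regions along the 10 genes, by distance (bp) from the outermost start site, with transcription to the right; the height of each line is the pooled signal as a multiple of the list median, with a scale bar of 4 multiples. The 11 summits passing the IDR threshold (red) sit at 9 promoters and past the ends of His3.3B and XNP, and the 21 others (blue) are lower.

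The promoter sequences below are shown because the promoters of genes with similar roles differ in the short sequences they hold, and so that genes with and without a peak can be set side by side. Capitals mark CGATA or its reverse complement TATCG, the core recognised by the insulator protein BEAF-32. Letters are from the RefSeq copy of the dm6 genome, 5′ to 3′ along the gene. The H3.3 pair comes first. The His3.3A stretch (chr2L:5054987-5055087, + strand) has 2 cores just before the start and ends short of the summit. The His3.3B stretch (chrX:9156640-9156919, - strand) has none. Its promoter peak had the lowest mean signal of the 9, though not the lowest in replicate 1, and a link between cores and signal was not tested.
His3.3A: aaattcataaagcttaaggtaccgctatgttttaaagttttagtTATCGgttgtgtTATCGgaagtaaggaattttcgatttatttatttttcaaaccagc
His3.3B: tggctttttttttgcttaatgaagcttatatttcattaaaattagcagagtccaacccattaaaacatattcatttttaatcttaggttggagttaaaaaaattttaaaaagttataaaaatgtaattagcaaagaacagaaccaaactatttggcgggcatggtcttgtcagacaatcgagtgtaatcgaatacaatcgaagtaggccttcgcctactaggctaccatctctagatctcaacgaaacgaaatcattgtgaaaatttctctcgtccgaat
The next 2 are the promoters of the H3.3 depositors, Hira (chrX:7721869-7722148, + strand) and XNP (chr3R:25482805-25483084, - strand), each with 5 cores. In XNP, 2 of the 5 overlap in the palindrome TATCGATA, the binding site of the replication-related factor DREF.
Hira: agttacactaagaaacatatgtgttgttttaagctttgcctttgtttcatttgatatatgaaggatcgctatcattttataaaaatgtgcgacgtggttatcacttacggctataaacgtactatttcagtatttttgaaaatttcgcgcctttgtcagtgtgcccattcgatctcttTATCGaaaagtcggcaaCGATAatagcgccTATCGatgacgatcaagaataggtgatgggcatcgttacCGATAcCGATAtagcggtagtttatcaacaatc
XNP: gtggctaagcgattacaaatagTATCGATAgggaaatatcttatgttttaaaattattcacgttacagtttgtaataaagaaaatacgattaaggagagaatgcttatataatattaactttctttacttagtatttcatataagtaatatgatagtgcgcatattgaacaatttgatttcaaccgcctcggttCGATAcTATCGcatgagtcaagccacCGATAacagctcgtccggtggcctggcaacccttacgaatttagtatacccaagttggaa
The last 2 are dre4 (chr3L:1876283-1876562, - strand) and asf1 (chr3L:19618644-19618923, + strand). The dre4 sequence holds no core, and its peak had the second highest mean signal of the 9. The asf1 sequence holds 1 core, and the gene had no peak passing the threshold.
dre4: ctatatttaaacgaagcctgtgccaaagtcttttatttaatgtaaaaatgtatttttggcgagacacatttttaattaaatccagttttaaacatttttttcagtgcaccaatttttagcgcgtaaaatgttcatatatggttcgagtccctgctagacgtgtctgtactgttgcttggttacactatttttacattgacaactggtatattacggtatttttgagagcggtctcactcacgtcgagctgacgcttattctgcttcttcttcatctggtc
asf1: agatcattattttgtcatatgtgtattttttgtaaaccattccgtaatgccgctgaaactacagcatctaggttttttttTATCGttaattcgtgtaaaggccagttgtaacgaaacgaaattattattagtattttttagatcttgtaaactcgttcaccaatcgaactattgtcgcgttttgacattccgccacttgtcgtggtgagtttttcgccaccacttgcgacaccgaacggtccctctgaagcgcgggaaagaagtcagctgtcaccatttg
These letters describe the sequences, and factor binding was not measured.

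Signal is given below for each replicate as a multiple of the median over the 30000 regions of that replicate's own list, taken from the region whose summit lay within 100 bp. The means are over n = 2 replicates with their SD, and the deposited signal values are the authors'. In the pooled list the weakest peak passing the threshold stood at 2.09 multiples. Over all 4360 protein-coding genes whose promoter peak had a value in both replicates, the median of the mean signal was 3.54, with quartiles of 2.67 and 4.92.

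Among the variant genes, His2Av had the highest promoter signal in both replicates. Its mean was also the highest of the 9 genes with a peak, though dre4 was higher in replicate 3 and the 2 means were closer than the SD of dre4. Its signal was 6.37 multiples in replicate 1 and 5.90 in replicate 3, a mean of 6.14 ± 0.338 (SD, n = 2), which put it at percentile 85.3 of the genes with a promoter peak. Both replicates were well above the medians of those genes, which were 3.18 in replicate 1 and 3.95 in replicate 3. The peak (chr3R:26866687-26866821) ranked 719 of the 6844 and was listed as 135 bp wide, against a median listed width of 404 bp. Its summit lay 182 bp upstream of the His2Av start (FBgn0001197, chr3R:26866929-26869220, + strand) and 60 bp downstream of the start of ball, in an intron of that gene. The gene ball encodes a conserved nuclear protein kinase and is transcribed away from His2Av, so the 2 genes share the peak. A further region inside the His2Av body, in its intron 692 bp past the start, reached 1.63 multiples in the pooled list and ranked 9222, below the threshold.

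Of the 2 genes for H3.3, His3.3A had the higher promoter signal in both replicates. His3.3A (FBgn0014857, chr2L:5055058-5056149, + strand) had 4.03 multiples in replicate 1 and 4.52 in replicate 3, a mean of 4.27 ± 0.348 (SD, n = 2). His3.3B (FBgn0004828, chrX:9152523-9156669, - strand) had 3.00 in replicate 1 and 1.50 in replicate 3, a mean of 2.25 ± 1.06 (SD, n = 2). Both replicates of His3.3A were above both of His3.3B, and the His3.3B replicates were themselves farther apart than those of His3.3A. With 2 replicates no test of this difference was made. Among genes with a promoter peak, His3.3A stood at percentile 66.0 and His3.3B at percentile 10.3.

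The summits of the pair also sat differently. The His3.3A summit (peak chr2L:5054891-5055294) lay 35 bp downstream of the outermost start, in the 5′ UTR and between the gene's 2 annotated TSSs, and 77 bp upstream of the start of CG14036. The His3.3B promoter summit (peak chrX:9156469-9156872) lay 2 bp upstream of the outermost of its 3 TSSs, with no other gene starting within 250 bp. The His3.3B peak ranked 3293 in the list of replicate 1 and 10020 in that of replicate 3. It therefore stood within the strongest 6844 regions of replicate 1 and outside those of replicate 3.

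His3.3B had a second peak, stronger in the pooled list than its promoter peak. It lay at chrX:9152179-9152582 in intergenic sequence, with the summit 142 bp past the gene's end and 2631 bp from its nearest TSS. The nearest TSS to this summit was that of His3.3B itself, with the next, of Bap111, 3072 bp away. The peak ranked 3140 in the pooled list. The replicate regions with a summit within 100 bp gave 0.827 multiples in replicate 1 and 3.77 in replicate 3. That gap came from the matching distance. The strongest region overlapping the peak had 3.14 multiples in replicate 1 and 3.77 in replicate 3, so both replicates carried a region of over 3 multiples there. All 32-base words around this peak occur once in the genome. Of the 11 summits in the 10 windows, it was the 1 that lay within 250 bp of no annotated TSS.

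His4r and cid share their promoters with neighbours. His4r (FBgn0013981, chr3R:14625755-14626614, + strand) had 2.43 multiples in replicate 1 and 4.04 in replicate 3, a mean of 3.24 ± 1.13 (SD, n = 2). Its summit (peak chr3R:14625524-14625927) lay 29 bp upstream of the start and 23 bp upstream of that of the divergent gene put, which encodes a type II receptor of the activin and BMP pathways. The cid gene (FBgn0040477, chr2R:13485617-13486631, + strand) had 1.76 multiples in replicate 1 and 2.82 in replicate 3, a mean of 2.29 ± 0.751 (SD, n = 2). Its summit (peak chr2R:13485379-13485782) lay 36 bp upstream of the cid start and 190 bp upstream of that of cbc. Both genes were below the 3.54 median of genes with a promoter peak, His4r at percentile 42.5 and cid at percentile 12.1. The cid peak ranked 7870 in the list of replicate 1, outside its strongest 6844, and 4666 in that of replicate 3.

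Among the genes for histone carriers and depositors, dre4 and XNP were above the 3.54 median, Hira and Nap1 below it. For dre4 (FBgn0002183, chr3L:1871574-1876312, - strand) the signal was 3.95 multiples in replicate 1 and 7.06 in replicate 3, a mean of 5.50 ± 2.21 (SD, n = 2). That is the widest spread between replicates among the 9 promoter peaks, and the mean stood at percentile 80.5. The dre4 peak (chr3L:1876308-1876483) was 176 bp wide, and its summit lay 130 bp upstream of the start with no other gene starting within 250 bp. Narrow peaks like those of His2Av and dre4 were uncommon in the set as a whole, where 939 of 6844 peaks (13.7%) were under 200 bp wide.

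XNP (FBgn0039338, chr3R:25477868-25482834, - strand) had 3.96 multiples in replicate 1 and 4.95 in replicate 3, a mean of 4.45 ± 0.697 (SD, n = 2) and percentile 69.0. The promoter summit (peak chr3R:25482703-25483106) lay 71 bp upstream of the start, with CG42488 and CG5116, which overlap, both starting 193 bp to its other side. The second peak in the XNP window (chr3R:25476747-25477150) belongs by position to other genes. Its summit lay 919 bp past the end of XNP, 34 bp upstream of the start of CG4553 and 54 bp upstream of that of MED28, which encodes a subunit of the Mediator coactivator. It was the weaker of the 2, with 1.99 multiples in replicate 1 and 2.52 in replicate 3.

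Hira and Nap1 had no other gene's TSS within 250 bp of the summit. Hira (FBgn0022786, chrX:7722119-7725917, + strand) had 3.53 multiples in replicate 1 and 3.01 in replicate 3, a mean of 3.27 ± 0.368 (SD, n = 2). Its summit (peak chrX:7721897-7722300) lay 20 bp upstream of the start, among the 5 BEAF-32 cores of the sequence above. Nap1 (FBgn0015268, chr2R:23905175-23907294, - strand) had 2.24 multiples in replicate 1 and 3.33 in replicate 3, a mean of 2.78 ± 0.768 (SD, n = 2). The Nap1 summit (peak chr2R:23907095-23907498) lay 3 bp upstream of the start, and the next gene, kcc, which encodes a potassium and chloride cotransporter, began 357 bp away. Hira stood at percentile 43.3 of the genes with a promoter peak and Nap1 at percentile 28.6.

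The one gene without a peak was asf1 (FBgn0029094, chr3L:19618894-19620398, + strand). By its label the pooled list holds background as well as peaks, and 54.6% of all genes had a region of it within 250 bp of a start. That list held 3 regions upstream of the asf1 start, all below the threshold and ranked between 8299 and 9300. They lay at 120 bp with 1.73 multiples, at 319 bp with 1.79 and at 557 bp with 1.62. The replicates differed over which was strongest. At the region nearest the start, replicate 1 had 0.941 multiples and replicate 3 had 2.64, a mean of 1.79 ± 1.20 (SD, n = 2). In replicate 1 the strongest region was instead the one 556 bp upstream, in a coding exon of the neighbouring gene l(3)76BDm, with 1.99 multiples. The replicate 3 region ranked 5140 in its own list and so fell within that list's strongest 6844, whereas the replicate 1 region at the start ranked 16043. The nearest peaks passing the threshold were 6588 bp upstream, near Lon, and 12031 bp downstream. All 32-base words within 250 bp of the asf1 start are unique in the genome, as they are for the other 9 genes.

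**Figure D2:**
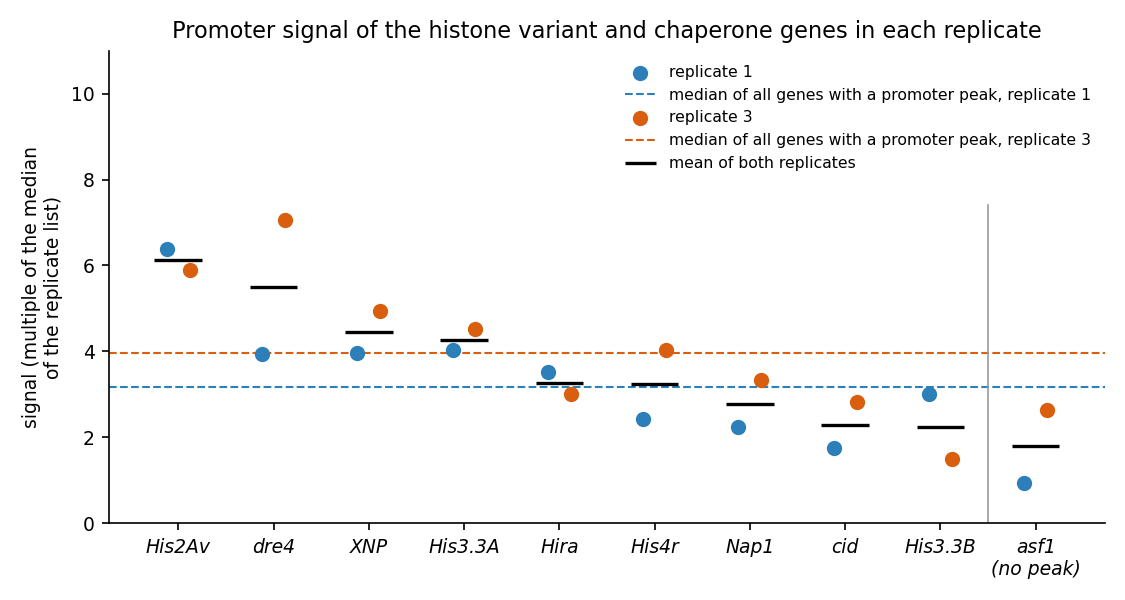
Promoter signal of each gene in replicate 1 (blue, left) and replicate 3 (orange, right), as a multiple of the median of the replicate's list, with a bar at the mean of both and dashed lines at the medians of all genes with a promoter peak (3.18 in replicate 1, 3.95 in replicate 3). His2Av, dre4, XNP and His3.3A are above the dashed line of the replicate in both, Nap1, cid and His3.3B are below it in both, and asf1, right of the grey line, has no peak passing the threshold.

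As a set the 9 genes with a peak were ordinary in signal among genes with a promoter peak. Their median was 3.27 multiples, against 3.54 over the 4360 genes, with 4 genes above that median and 5 below. By replicate, the median of the 9 was 3.53 in replicate 1 and 4.04 in replicate 3, against 3.18 and 3.95 over all genes with a promoter peak. Keeping only the strongest 3422 of the 6844 peaks left 6 of the 10 genes with a promoter peak, without His3.3B, cid, Nap1 and asf1, against 19.5% of all genes. Any region of the pooled list, passing the threshold or not, lay within 250 bp of a start in 10 of the 10 genes, against 54.6% of all genes.

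**Figure D3:**
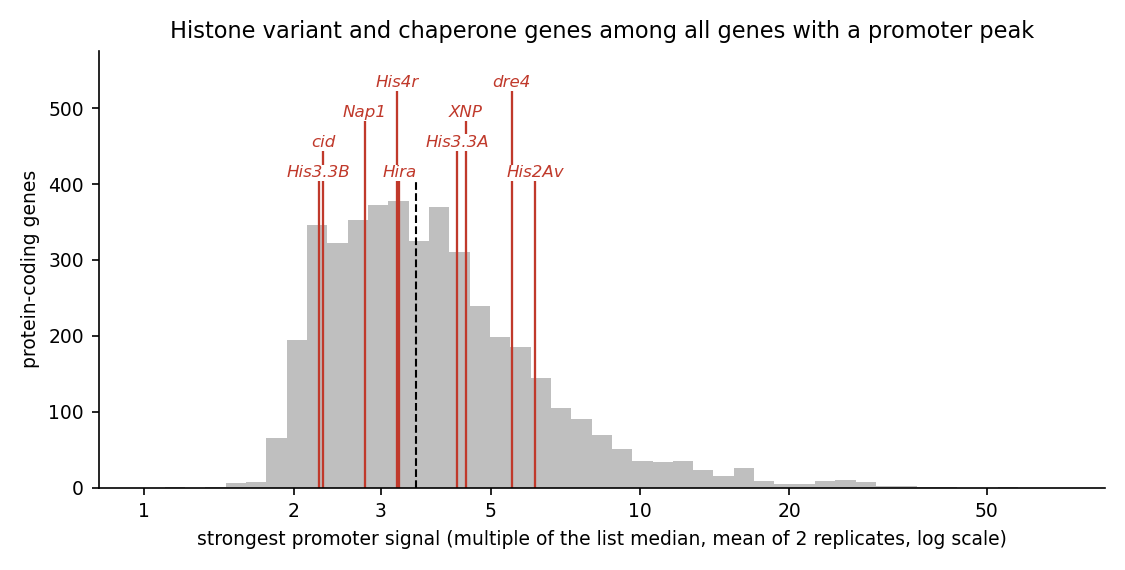
Number of protein-coding genes by the signal of their strongest promoter peak (multiple of the list median, mean of 2 replicates, log scale; 4360 genes), with the 9 genes marked in red and the median of 3.54 as a dashed line. The 9 genes run from 2.25 (His3.3B) to 6.14 (His2Av), 5 left of the median and 4 right of it.

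The order of the 9 genes was partly set by the replicate. Signal was higher in replicate 3 for 6 of them, and higher in replicate 1 for His2Av, Hira and His3.3B. Over the 6443 peaks matched in both replicates, 66.2% were higher in replicate 3, with a median ratio of replicate 3 to replicate 1 of 1.18. The ratio ran between 0.499 for His3.3B and 1.79 for dre4. In the order of the means (His2Av, dre4, XNP, His3.3A, Hira, His4r, Nap1, cid and His3.3B) each gene differed from the next by less than the larger of their SDs, except His3.3A from Hira. His2Av was higher in both replicates than the 7 genes ranked below dre4. Counted in each replicate's own strongest 6844 regions, 8 of the 10 genes had a promoter region in replicate 1, without cid and asf1, against 31.2% of all genes. In replicate 3 it was 9 of the 10, against 33.1% of all genes, but not the same 9: His3.3B was missing and asf1 was present.

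The summits were close to the starts and mostly just upstream. Across the 9 genes the median position was 29 bp upstream of the nearest own TSS, within a range of 182 bp upstream to 35 bp downstream, and 8 of 9 were upstream. Over all genes with a promoter peak the median was 64 bp upstream and 82.0% of summits were upstream. The replicate summits matched to these 9 peaks lay at most 54 bp from the pooled summit. Only summits within the matching distance could be matched, so this limit does not show agreement of the replicates on position. In replicate 1 a stronger region than the matched one overlapped the His4r peak, with 2.62 against 2.43 multiples. The same was so for Nap1, with 2.44 against 2.24. For the other genes, and for all 9 in replicate 3, the matched region was the strongest overlapping the peak. In 5 of the 9 genes (His2Av, His3.3A, His4r, cid and XNP) the peak also lay within 250 bp of another gene's start, which was so for 45.2% of all protein-coding genes with a promoter peak. The peaks of dre4, Hira, Nap1 and His3.3B could be placed at 1 gene alone.

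Below the threshold the 10 windows held 21 further pooled regions, spread over 7 genes and weak. Their signal ran between 0.490 and 1.79 multiples with a median of 0.883, and 4 ranked within the first 10000 of the list, 3 of them upstream of asf1 and 1 in the His2Av intron. Hira, XNP and dre4 had none. In the introns of His3.3B, 2 regions reached 1.18 and 0.997 multiples and ranked 12763 and 15047.

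Matches to 8 short sequences that promoter and chromatin factors are known to recognise were counted on both strands, between 250 bp before and 50 bp after the outermost start. The BEAF-32 core CGATA was present in 7 of the 10 promoters, all but His3.3B, Nap1 and dre4, against 47.4% of all 13945 promoters and 60.6% of the 4360 with a promoter peak that had a value in both replicates. Copies were counted for this sequence alone. With 2 or more copies there were 6 of the 10, against 24.3% of all promoters and 40.3% of those 4360. With 3 or more copies there were 4 of the 10, namely His2Av, His4r, Hira and XNP, against 12.6% of all promoters and 23.8% of those 4360. Overlapping matches were counted apart, and the DREF site TATCGATA holds 2 cores. That longer site occurred in 1 of the 10, XNP, against 9.36% of all promoters, and it lay 153 bp from the summit. The core was also within 100 bp of the summit in 6 of the 9 promoter peaks. Over all 6844 peaks, which include those outside promoters, the share was 39.9%. It was not counted for promoter peaks alone, so the 2 shares are not of like peaks.

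**Figure D4:**
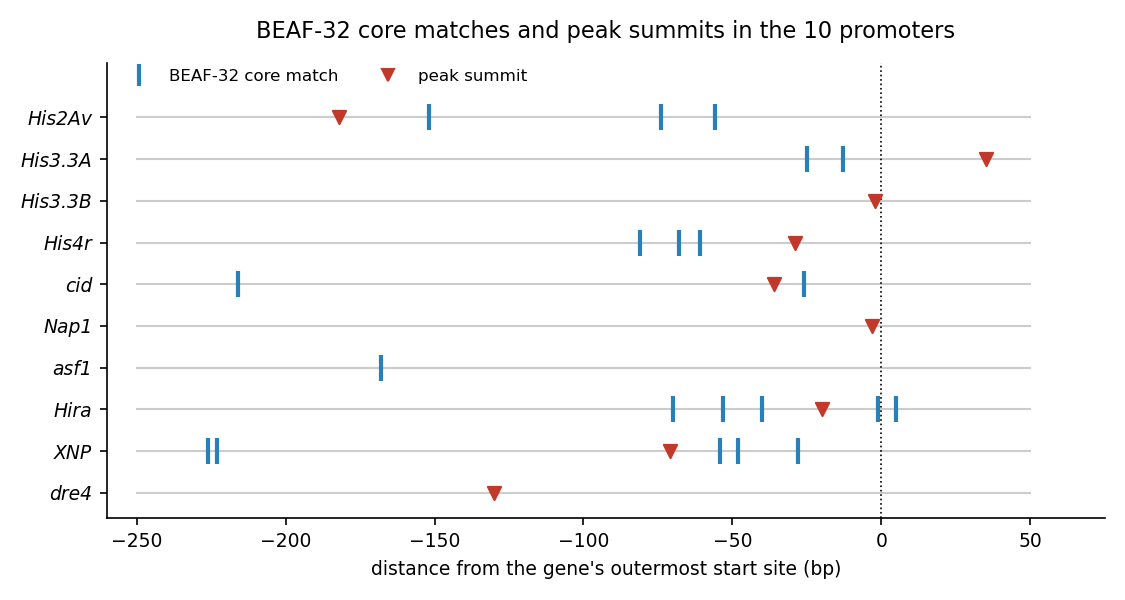
Centres of BEAF-32 core matches (CGATA, either strand; blue ticks) and summits of peaks passing the threshold (red triangles) in the 10 promoters, by distance (bp) from the outermost start site. His3.3B, Nap1 and dre4 have a summit and no core, asf1 has 1 core and no summit, and the cores of Hira flank its summit on both sides.

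The other 6 sequences were each present in 5 or fewer of the 10 promoters. GGTCACAC, the core bound by the zinc-finger protein M1BP, lay in those of cid and Nap1 (2 of 10, against 7.7% of all promoters). CAGCTG, an E-box, lay in those of His3.3A, cid and asf1, 3 of 10 against 17.7%. The Initiator letters TCAGT were found in 5 of 10 against 51.5%, and the TATA box letters TATAAA in 3 of 10 against 45.8%. Both were counted anywhere in the window, so a match does not show a working TATA box or Initiator. GAGAG was found in 3 of 10 against 29.7% and the Zelda letters CAGGTA in 1 of 10, cid, against 6.24%. Promoter G+C content over the same window had a median of 36.7% in the 10 genes, against 38.0% over all promoters, and ran between 32.3% in cid and 47.7% in His4r. With 10 promoters a difference of 1 gene moves such a share by 10 percentage points.

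Genes of the same pathways outside the 10 were counted from lists written from knowledge of the pathway. Of 16 other histone chaperone genes, 9 had a promoter peak, with a median signal of 4.02 multiples. The 3 highest were Daxx, for a chaperone of H3.3 in mammals, with 5.32 ± 3.06 (SD, n = 2), Set, for a Nap1 relative, with 5.28 ± 1.56, and Nasp, for an H3 carrier, with 4.45 ± 0.965. The nucleoplasmin relatives Nlp and Nph share 1 peak, and all 3 subunits of the CAF-1 complex, which deposits H3 and H4 behind replication forks, had one. Among the 7 without a promoter peak were 3 genes named here after their values were seen, because their products work with those of the 10. Ssrp, the other subunit of FACT beside Dre4, reached 1.31 multiples at its promoter in the pooled list and a rank of 11596 there. The gene cal1, for the chaperone that loads Cid at centromeres, reached 1.40 in the pooled list and a rank of 10873. The gene yem, for the partner of Hira, had no pooled region within 250 bp of a start, though a peak passing the threshold lay elsewhere in its window.

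The Tip60/Domino complex exchanges His2Av into nucleosomes, and 12 of its 15 genes had a promoter peak, with a median of 3.09 multiples. The 3 highest were pont, with 7.19 ± 2.14 (SD, n = 2), Gas41, with 5.44 ± 1.81, and rept, with 4.49 ± 0.934. The genes pont and rept encode the paired AAA+ ATPases of the complex. Its ATPase motor gene dom was low, at 2.44 ± 0.755, and Tip60, the acetyltransferase, had no promoter peak, with 1.87 multiples in the pooled list. DMAP1 and Nipped-A had none either. Of 7 genes for the histone locus body and histone mRNA processing, 4 had a promoter peak, with a median of 3.69. Slbp, for the protein that binds the stem-loop of histone mRNAs, had 5.76 ± 0.493, and mxc, for the scaffold of the histone locus body, had 4.50 ± 1.03. Clamp, for a GA-repeat binding protein of that body, had 2.88 ± 0.497. The embryonic linker histone gene BigH1 had no region of the pooled list within 250 bp of its start. Together 25 of the 39 listed genes (64.1%) had a promoter peak, against 9 of the 10 genes above and 32.8% of all genes.

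**Figure D5:**
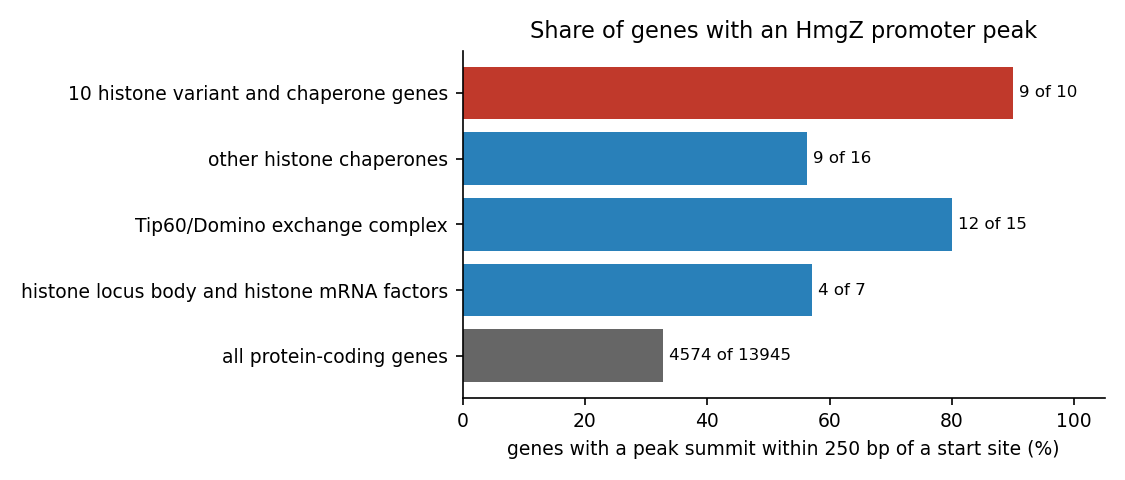
Percentage of genes with a summit passing the IDR threshold within 250 bp of a start site, for the 10 histone variant and chaperone genes (red), 3 lists of related genes (blue) and all protein-coding genes (grey), with counts beside the bars. The share is 9 of 10 for the red bar and 12 of 15 for the Tip60/Domino complex, against 4574 of 13945 for all genes.

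The replication-dependent histone genes themselves could not be read from these lists. All 111 annotated copies lie in the tandem array at chr2L:21416953-21541681, and 0 of them had a region of the thresholded set, the pooled list or either replicate's list in the body plus 2 kb. The repeats are nearly identical. The median share of 32-base words within 250 bp of their starts that occur once in the genome was 0%, and the highest was 36.4%, against 100% at all 10 genes above. Whether reads from such repeats were kept is not given in the sources used here, so a listed absence there says nothing of HmgZ occupancy.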

How the data were processed

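The deposited files are peak lists of HmgZ-eGFP ChIP-seq, from 2 biological replicates of whole embryos. Per the file headers and labels, the authors called regions per replicate and in pooled reads against 1 control alignment on dm6 and derived an IDR-thresholded set. Which aligner and peak caller were used is not given in the sources. The pooled list is labelled as peaks and background put into the IDR step. Each deposited region has a signal value, on a scale of its own in each list. The deposited −log10 q-value was capped at 4.23 in the pooled list and was not used for ranking. Read depth is unknown. The 6844 thresholded peaks were the strongest 6844 of the pooled list.

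Summits were placed on Ensembl 115 protein-coding genes of 6 chromosome arms, without transposable elements and pseudogenes. A promoter peak had its summit within 250 bp of any TSS. Replicate signal came from the region with a summit within 100 bp, divided by that list's median. Sequences and motifs were read from the RefSeq dm6 genome by coordinates. All 10 genes had the same coordinates in both annotations. The 10 genes and the lists were chosen with earlier results of these data known. With 1 group, no test was made. Named genes were the 10, genes starting within 250 bp of their summits or nearest to them, and the 3 strongest of each list. Any further gene named was picked with its value in view. Alternatives covered stricter sets, single replicates, and other distances, windows and scales. The functions were tested on simulated data. Software was Python 3.11.15, numpy 2.4.6, pandas 2.3.3 and matplotlib 3.10.9.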

Additional observations from a re-analysis of the deposited data

How the results depend on the processing

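The promoter count was 9 of 10 genes with a distance of 500 bp (37.1% of all genes), with 1000 bp (40.9%) and with peaks matched in both replicates (31.3%). It was 7 at 100 bp (21.6% of all genes), without His2Av and dre4. It was also 7 when a summit counted only for its nearest gene (26.2%). That rule dropped His2Av, whose summit was nearest to ball, and His4r, whose summit was nearest to put. Leaving out either replicate gave 8 to 9 genes, without cid and asf1 in replicate 1's own list and, in replicate 3's, without His3.3B but with asf1. The strongest 1711 peaks left 3 genes (His2Av, XNP and dre4; 10.3% of all genes), 3 other chaperone genes, 3 Tip60/Domino genes and 2 histone locus body genes. The strongest 3422 peaks (19.5% of all genes) left 8 of 16 other chaperone, 5 of 15 Tip60/Domino and 2 of 7 histone locus body genes. A distance of 100 bp (21.6% of all genes) left 2 of the 7 histone locus body genes. The 11 summits became 7 with the strongest 3422 peaks, 3 with the strongest 1711, 1 with no flank and 19 with a flank of 5 kb, by construction of fewer peaks or other windows. They were 11 to 13 without a replicate, and the cause was not tested. Without either replicate the lists gave 10 of 16 other chaperone genes. They gave 11 to 13 of 15 Tip60/Domino genes and 4 to 5 of 7 histone locus body genes, and BigH1 stayed at 0. The share of all genes was 33.1% without replicate 1 and 31.2% without replicate 3. The median signal of 3.27 was 3.53 to 4.04 without a replicate, and 1.03 when each list was divided by the median over matched peaks, a different scale by construction. Within 100 bp of the summit, a narrower window, motifs were counted in the 9 promoter peaks and in all 6844 peaks, which include those outside promoters. The counts were 0 of 9 for the DREF site (7.26% of all peaks) and 1 for the E-box (13%). They were 1 for the TATA box letters (28.1%) and 0 for the Zelda letters (4.35%). No paired analysis was possible because there is 1 group and no contrast. Depth is unknown and 2 replicates limit every SD.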
